A study of Mus musculus with 4 samples.

Results

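Secretoglobins are small secreted proteins, and 4 of their genes, Scgb2b7, Scgb2b20, Scgb1a1 and Scgb3a1, were followed in the mouse prostate after vasectomy or sham surgery. They were taken by name from the 22180 genes that had a probe set with exactly 1 gene symbol, with the brightest probe set of each symbol by the mean of the 4 arrays. Each of the 4 has a single such probe set. A further 19 genes whose symbols begin with Scgb were measured by the same rule, which gave 23 secretoglobin genes in all. The first 4 were chosen on their RMA values in these same arrays, with the difference between the surgeries known, so that difference is described for them and not tested.

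Prostate RNA of 4 male C57BL/6 mice was measured on Affymetrix arrays that cover whole transcripts, with 1 array per mouse. The vas deferens had been cut in 2 mice (vasectomy), and the other 2 had a sham operation as control. The sample labels give surgery at 16 weeks and harvest at 24 weeks of age, whereas their description line counts the 24 weeks from surgery. A younger age at surgery stands in the methods. The labelled tissue is the lateral prostate and the methods name the dorsolateral lobe. No genetic change or drug is given for either group, and nothing in the labels says what mice of the same number share. Values are the authors' RMA summaries (background-corrected and quantile-normalized), whose log base is not stated and was taken as log2. Receptor genes of the nose, expected to be off in most other tissue, gave a stand-in for background of 4.62, the 95th percentile of 1390 such genes. Across genes, the vasectomy 2 array correlated with the other 3 at 0.9703 to 0.9758, and those 3 correlated with each other at 0.9843 to 0.9893. Group differences of the secretoglobins that vary between the arrays are therefore also given without it.

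Secretoglobins fold into small helical subunits that pair around a hydrophobic pocket. In the mouse, the Scgb1b genes encode alpha subunits and the Scgb2b genes encode beta subunits of androgen-binding proteins, which form alpha-beta dimers and are best known from saliva and tears. In the rat, a related secretoglobin, prostatein, is a major androgen-dependent product of the prostate. Scgb1a1 encodes uteroglobin, the secretory protein of airway club cells, and Scgb3a1 encodes a secretoglobin of airway and other secretory epithelia.

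The beta-subunit genes sit in a cluster of recent copies. RefSeq lists them for assembly GRCm38.p6, where 48 of 53 secretoglobin entries are Scgb1b or Scgb2b genes or pseudogenes on chromosome 7. Promoter windows of 300 bases, 250 before and 50 after the gene start, are printed 5′ to 3′ from RefSeq for Scgb2b7 and Scgb2b20, which had high values in 3 of the 4 arrays, for Scgb2b18, which had none above the background stand-in, and for Scgb2b27, a gene that was also highest in sham 1 and lowest in vasectomy 2. Capitals mark TGTTCT or its reverse complement AGAACA, the half-site that androgen and glucocorticoid receptors share. The windows are chr7:31705705-31706004 for Scgb2b7, chr7:33366270-33366569 for Scgb2b20, chr7:33173812-33174111 for Scgb2b18 and chr7:34013893-34014192 for Scgb2b27, all on the minus strand of GRCm38.p6.
Scgb2b7: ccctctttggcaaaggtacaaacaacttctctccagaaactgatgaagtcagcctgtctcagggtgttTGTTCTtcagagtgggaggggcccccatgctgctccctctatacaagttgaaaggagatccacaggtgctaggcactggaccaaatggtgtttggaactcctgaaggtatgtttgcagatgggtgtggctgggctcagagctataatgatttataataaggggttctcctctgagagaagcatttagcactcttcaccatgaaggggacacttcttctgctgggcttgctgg
Scgb2b20: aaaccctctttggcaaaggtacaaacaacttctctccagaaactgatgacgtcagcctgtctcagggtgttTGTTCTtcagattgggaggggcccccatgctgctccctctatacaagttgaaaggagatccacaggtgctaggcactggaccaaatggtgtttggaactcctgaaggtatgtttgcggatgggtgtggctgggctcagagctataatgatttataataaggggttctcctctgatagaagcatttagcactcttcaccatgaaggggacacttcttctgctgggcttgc
Scgb2b18: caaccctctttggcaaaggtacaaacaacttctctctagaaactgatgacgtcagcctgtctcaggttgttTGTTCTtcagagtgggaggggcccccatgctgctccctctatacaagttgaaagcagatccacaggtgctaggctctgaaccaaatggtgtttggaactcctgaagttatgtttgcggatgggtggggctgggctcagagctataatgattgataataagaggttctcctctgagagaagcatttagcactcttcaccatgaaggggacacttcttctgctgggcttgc
Scgb2b27: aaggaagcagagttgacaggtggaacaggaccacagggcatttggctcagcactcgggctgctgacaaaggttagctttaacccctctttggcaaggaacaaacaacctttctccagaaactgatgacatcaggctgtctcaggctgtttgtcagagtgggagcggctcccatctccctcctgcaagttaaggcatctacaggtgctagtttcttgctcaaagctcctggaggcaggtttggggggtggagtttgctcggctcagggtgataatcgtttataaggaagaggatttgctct

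The windows of Scgb2b7 and Scgb2b20 were identical at 293 of 297 aligned bases (98.7%), and that of Scgb2b18 matched Scgb2b7 at 286 of 297 (96.3%). Scgb2b27, a more distant copy, matched at 175 of 216 aligned bases (81.0%). The half-site began 182 bases before the start of Scgb2b7 and 179 bases before that of Scgb2b20 and of Scgb2b18, and it was not found in the window of Scgb2b27. On either strand, TGTTCT was present in 16 of the 20 Scgb2b windows and in 19.0% of 32851 promoter windows of the same length. TATAA, the core of a TATA box, was present in 20 of 20 Scgb2b windows and in 24.9% of all windows. The half-site thus stood before genes with very different array values, and a match is a description and not a bound site.

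Scgb2b7 and Scgb2b20 were bright in 3 arrays and below the background stand-in in the fourth. The RMA value of Scgb2b7 was 11.98 (sham 1), 10.82 (sham 2), 10.12 (vasectomy 1) and 4.10 (vasectomy 2). That of Scgb2b20 was 11.47 (sham 1), 10.04 (sham 2), 9.14 (vasectomy 1) and 2.85 (vasectomy 2). In the probe set of each gene the order of the arrays was the same, and both vasectomized mice lay below both sham mice. However, a pair of probe sets that list both genes put vasectomy 1 (10.13) level with sham 2 (10.12), so the groups overlapped there. The group means were 7.11 ± 4.26 (SD, n = 2) against 11.40 ± 0.82 (SD, n = 2) for Scgb2b7, a difference of -4.29 on the log2 scale. For Scgb2b20 they were 6.00 ± 4.45 (SD, n = 2) against 10.76 ± 1.01 (SD, n = 2), a difference of -4.76. In each of these genes the difference between the groups was about as large as the SD of the vasectomy group. Over all genes, 12.0% were lower after vasectomy without overlap between the groups and 0.108% were also at least 2-fold lower (0.0857% at least 2-fold higher), but the contrast had chosen these genes and nothing is read from that share.

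Most of the size of the difference rested on vasectomy 2. Without that array, Scgb2b7 differed by -1.28 and Scgb2b20 by -1.62, with vasectomy 1 as the lone vasectomized mouse. Both genes lay below the background stand-in in vasectomy 2, so differences that use that array depend on values under it. With such values raised to the stand-in of 4.62, the group difference was -4.03 for Scgb2b7 and -3.88 for Scgb2b20. Without vasectomy 1 it was then -6.78 and -6.14, in place of -7.30 and -7.91 as deposited. The order of the 2 genes by size of difference thus depended on values below background. In linear terms vasectomy 1 was 2.43-fold below the sham mean for Scgb2b7 and 3.06-fold below it for Scgb2b20. The sham mice themselves were 1.16 apart for Scgb2b7 and 1.43 apart for Scgb2b20, and vasectomy 1 lay 0.70 and 0.90 below the lower of them. The gap between vasectomy 1 and the nearer sham mouse was therefore smaller than the gap between the sham mice. In bulk tissue, fewer cells that make a transcript and less transcript per cell cannot be told apart.

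**Figure D1:**
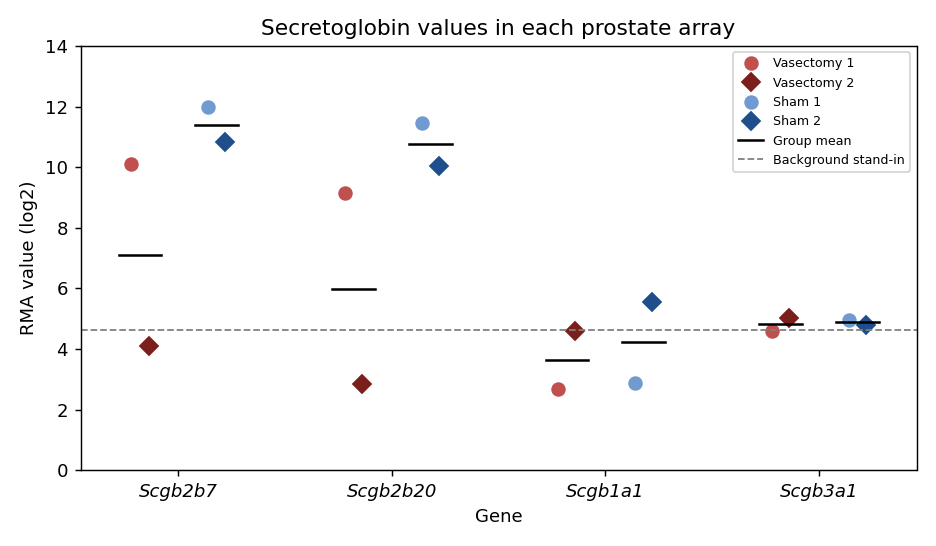
RMA values (log2, vertical axis) of the 4 secretoglobin genes in each of the 4 arrays, with short bars for the group means and a dashed line for the background stand-in of 4.62. Scgb2b7 and Scgb2b20 lie at 9.14 or higher in 3 arrays and at 4.10 and 2.85 in vasectomy 2, while Scgb1a1 and Scgb3a1 lie between 2.67 and 5.56.

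Scgb1a1 did not follow the beta-subunit genes. Its value was 2.67 (vasectomy 1), 4.59 (vasectomy 2), 2.89 (sham 1) and 5.56 (sham 2), so only sham 2 passed the background stand-in. The mouse numbered 2 was the higher one in each group, and the groups overlapped. The means were 3.63 ± 1.36 (SD, n = 2) after vasectomy and 4.23 ± 1.89 (SD, n = 2) after sham surgery, a difference of -0.60, which is smaller than either SD. Leaving out 1 array turned the sign, to 0.37 without vasectomy 1 and 0.74 without sham 2, and gave -1.56 without vasectomy 2 and -1.93 without sham 1. Scgb3a1 had the narrowest range of the 4 genes. It was at 4.60 (vasectomy 1), 5.03 (vasectomy 2), 4.95 (sham 1) and 4.80 (sham 2), a range of 0.43 around the background stand-in. Its group means, 4.82 ± 0.30 (SD, n = 2) and 4.88 ± 0.11 (SD, n = 2), differed by -0.06, within the spread of each group. It became 0.16 when vasectomy 1 was left out and -0.28 when vasectomy 2 was, and 0.02 and -0.14 when sham 1 and sham 2 were. All 4 genes had a lower mean after vasectomy, but the direction of Scgb1a1 and Scgb3a1 depended on which array was used.

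Among the 23 secretoglobin genes, 7 had a mean above the background stand-in and 14 were below it in every array. Those below it in every array included Scgb3a2, another secretoglobin gene of the airway (2.15 to 2.48), Scgb1c1 (3.32 to 3.69), and 7 Scgb2b genes and a Scgb2b pseudogene. Scgb2b21 was at 1.41 in all 4 arrays. Near-identical copies are told apart only where probes fall on differing bases, and probe sets with several symbols show how far signal is shared. A pair of probe sets annotated to both Scgb2b20 and Scgb2b7 held identical values of 11.51 (sham 1), 10.12 (sham 2), 10.13 (vasectomy 1) and 4.76 (vasectomy 2). The values named here for Scgb2b7 and Scgb2b20 may therefore not be 2 independent measurements. In the shared pair vasectomy 1 was not below sham 2, so the lack of overlap in the probe sets of the single genes did not hold there. Of the 5 probe sets with several secretoglobin symbols, 5 were highest in sham 1 and lowest in vasectomy 2, as were 10.2% of all genes. The identical pair of the chosen Scgb2b20 and Scgb2b7 is among the 5, and the remaining ones all list Scgb1b12 and Scgb1b19. They are therefore not 5 separate observations, and nothing is read from that count.

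Other members of the cluster varied between the arrays. Of the 19 genes that were not chosen, 4 (21.1%) had a range of at least 2 on the log2 scale over the 4 arrays, against 0.834% of all genes. They are Scgb1b20, Scgb1b27, Scgb2b24 and Scgb2b27. The same 4 genes, again 21.1% of the 19, were highest in sham 1 and lowest in vasectomy 2. That order of extremes, which is also that of Scgb2b7 and Scgb2b20, was shown by 10.2% of all genes. Among the 185 genes with a range of at least 2 it was shown by 41.6%, so it was common among genes that vary. The copies share sequence, and Scgb2b24 had a range of 1.25 with values below the background stand-in raised to it. Scgb1b20, an alpha-subunit gene, was at 8.81 (sham 1), 7.66 (sham 2), 6.76 (vasectomy 1) and 4.31 (vasectomy 2). Its order was that of Scgb2b7, with no overlap between the groups. Scgb2b24 was at 5.87, 4.57, 4.09 and 2.28 in the same arrays and passed the background stand-in in sham 1 alone. The values of Scgb2b27, a beta-subunit gene, were 7.60 (sham 1), 5.14 (sham 2), 5.71 (vasectomy 1) and 2.65 (vasectomy 2). Scgb1b27 was at 7.52 in sham 1 and between 4.80 and 5.37 in the other 3 arrays. In these last 2 genes vasectomy 1 lay above sham 2, so the groups overlapped.

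The 19 secretoglobin genes outside the chosen 4 were tested with limma over all genes. At an adjusted p under 0.05, 0 of the 19 were called, as were 0.00% of all 22180 genes in either direction. The methods' t-test called 0 of 18 after Benjamini-Hochberg adjustment, since Scgb2b21, equal in all arrays, could not be tested. At an unadjusted p under 0.05 there were 3 by limma, all lower, and 1 of 18 by the methods' t-test. Over all genes, limma gave 1.07% as lower and 0.974% as higher at that level, and the methods' t-test gave 3.38% in either direction. Of the 3 genes from limma, Scgb1b20 was above the background stand-in in 3 arrays, Scgb2b24 in 1 and Scgb2b18 in none. Scgb1b20 differed by -2.70 (standard error 0.81, adjusted p = 1.0 from limma), with 5.54 ± 1.73 (SD, n = 2) against 8.24 ± 0.81 (SD, n = 2). Scgb2b24 differed by -2.04 (standard error 0.67) and Scgb2b18 by -0.85 (standard error 0.25). Scgb2b27 differed by -2.19 (standard error 1.16) and Scgb1b27 by -1.32 (standard error 0.69). Of the 19 genes, 13 had a lower mean after vasectomy, 4 a higher one and 2 the same, and 49.8% of all genes had a lower mean. The median difference was -0.14 against 0.00 over all genes. However, 14 of the 19 were below the background stand-in in every array, where the sign of a difference says little. The groups did not overlap for 5 of the 19, all lower, against 12.0% of all genes lower without overlap. Of these 5, Scgb2b18, Scgb2b19 and Scgb2b26 were below the background stand-in in every array. Scgb1b20 and Scgb2b24 were also at least 2-fold lower, as were 0.108% of all genes. With values below the stand-in raised to it, Scgb1b20 differed by -2.55 and Scgb2b24 by -0.63, which is under 2-fold. These copies share sequence and the same 4 mice, so they are not separate lines of evidence. Without vasectomy 2, the difference was -1.48 for Scgb1b20, -1.13 for Scgb2b24, -0.66 for Scgb2b27 and -1.03 for Scgb1b27. Without sham 1 it was -0.20 for Scgb1b27 and -0.96 for Scgb2b27, and without sham 2 it was -2.44 and -3.42. For Scgb2b24 the difference was -1.39 without sham 1.

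**Figure D2:**
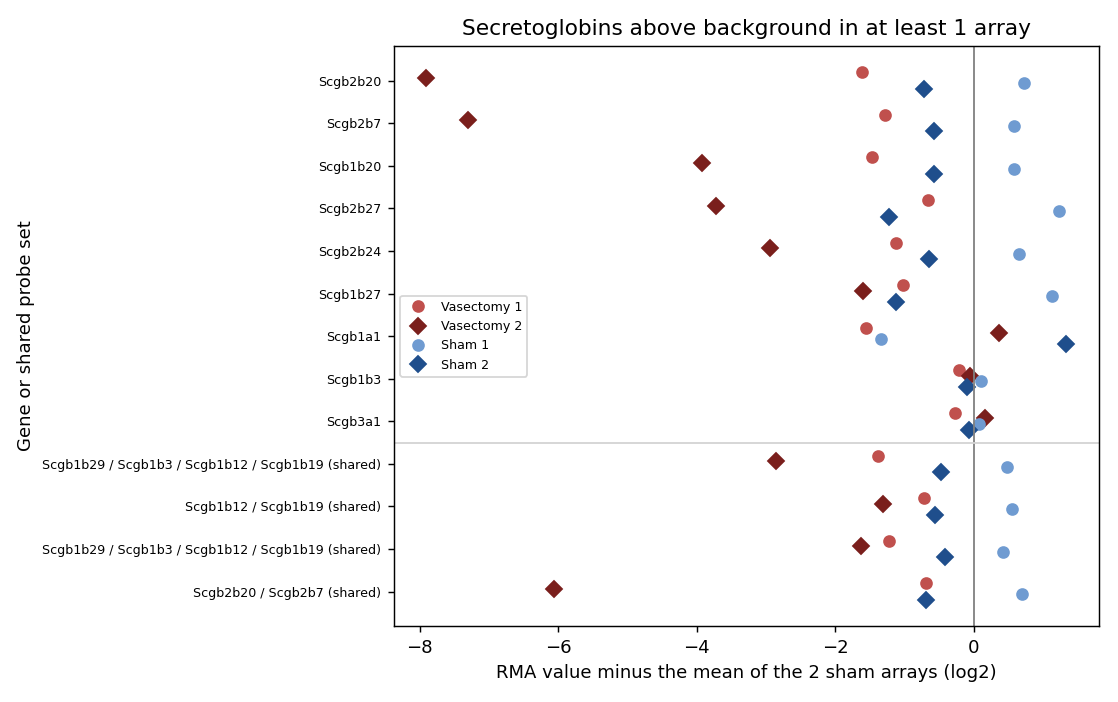
RMA values minus the mean of the 2 sham arrays (log2, horizontal axis) for the 9 secretoglobin genes above background in at least 1 array and for the distinct probe sets with several symbols, 1 point per array. Vasectomy 2 is farthest to the left for Scgb2b20, Scgb2b7, Scgb1b20, Scgb2b27, Scgb2b24 and Scgb1b27 and for the probe sets with several symbols. Scgb1b3 and Scgb3a1 stay near 0.

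Alpha and beta genes lie side by side in this cluster. Among the RefSeq entries, an Scgb1b and an Scgb2b gene of the same number are direct neighbours in 11 cases, and 6 of these pairs had both genes measured. The Scgb1b7 neighbour of Scgb2b7 was not analysed here. In the pair of Scgb1b20 and Scgb2b20, the alpha and the beta gene both ran from sham 1 through sham 2 and vasectomy 1 down to vasectomy 2. Both were below the background stand-in in vasectomy 2, and their spans were 4.19 for the alpha and 6.85 for the beta gene with those values raised to the stand-in. In the pair of Scgb1b27 and Scgb2b27, both genes were highest in sham 1 and lowest in vasectomy 2, and the alpha gene spanned 2.72 and the beta gene 2.98, its vasectomy 2 value raised to the stand-in. Scgb2b24 passed the stand-in in sham 1 alone, and its neighbour Scgb1b24 stayed between 1.42 and 1.70. For Scgb1b3 and Scgb2b3 the reverse held, in that Scgb1b3 was above background in every array (7.61 to 7.93) and Scgb2b3 was not (1.92 to 2.18). Scgb1b3 varied by only 0.32 over the 4 arrays, and its second probe set, between 3.77 and 4.09, was also flat. However, a pair of probe sets that list Scgb1b3 with 3 other alpha genes did vary, 1 of them from 8.89 in sham 1 to 5.56 in vasectomy 2. By their own probe sets, neither gene of the pairs Scgb1b2 with Scgb2b2 and Scgb1b19 with Scgb2b19 reached the background stand-in. Probe sets that list Scgb1b19 with other alpha genes were above it in every array. The one shared with Scgb1b12 alone ran from 7.19 in sham 1 to 5.32 in vasectomy 2, so the level of Scgb1b19 is not settled.

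**Figure D3:**
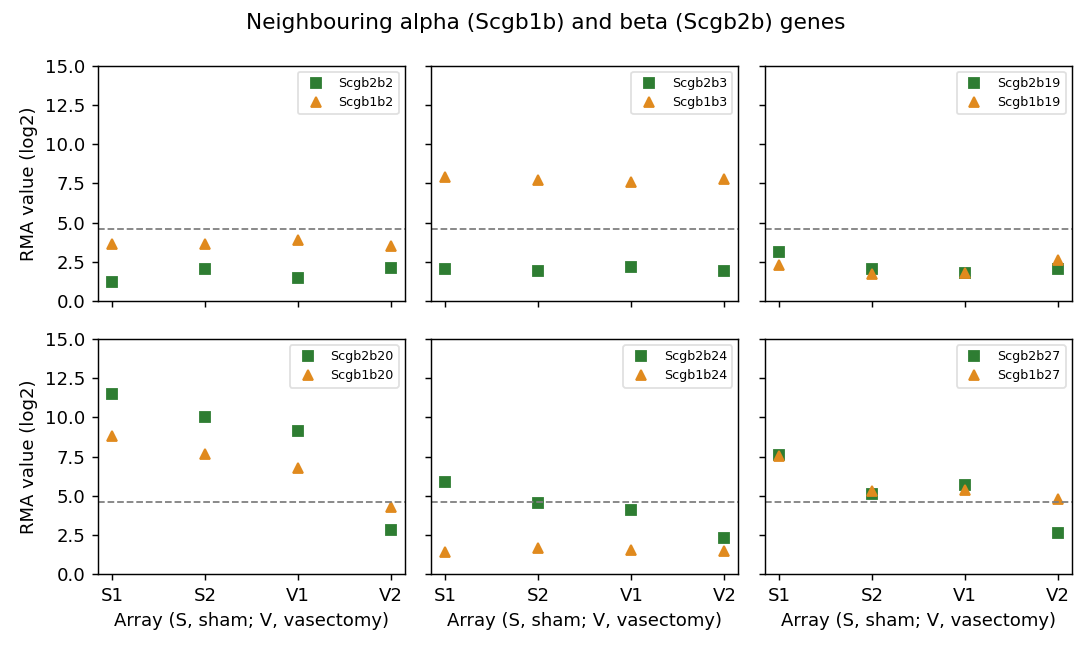
RMA values (log2, vertical axis) of neighbouring alpha (triangles) and beta (squares) genes in sham 1, sham 2, vasectomy 1 and vasectomy 2, 1 panel per pair, with a dashed line at the background stand-in. Both genes fall from sham 1 to vasectomy 2 for Scgb1b20 with Scgb2b20 and Scgb1b27 with Scgb2b27, and Scgb1b3 and Scgb2b3 are flat.

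Among all genes, those closest to Scgb2b7 over the 4 arrays were Scgb2b20, Spink5, BB123696, Cdcp3 and Mug1. Closeness was measured as the root mean square distance between mean-centred profiles, which was 0.27 for Scgb2b20 and 0.54 to 0.78 for the other 4. For Scgb2b20 they were Scgb2b7, Spink5, Spink1, BB123696 and Mug1, at 0.27 to 0.96. Spink5 and Spink1 encode Kazal-type serine protease inhibitors, and Mug1 encodes murinoglobulin, a broad protease inhibitor. All these genes were low in vasectomy 2, and the distances include values below the background stand-in there. Spink1 was at 4.92 there, the remaining arrays ranging from 13.18 to 13.29, and Mug1 was at 3.84 against 8.46 to 10.78. BB123696 was at 3.76 against 9.05 to 9.97, and Cdcp3 was at 6.61 against 11.84 to 12.66. Over the 3 arrays other than vasectomy 2, the Spink genes were no longer among the 5 closest. There Scgb1b20 was the closest gene to Scgb2b20 at 0.13. The closest to Scgb2b7 was Gm6909 at 0.07, with values of 1.98 to 3.68 that were all below the background stand-in, followed by Scgb2b24 and Scgb1b20 at 0.09 each. Nefh, a neurofilament gene, was among the 5 closest to both, Pate6 to Scgb2b7, and Wfdc15b, of a family of protease inhibitor-like proteins, to Scgb2b20. In vasectomy 2, however, Pate6 (7.49), Nefh (9.02) and Wfdc15b (9.24) had their highest values of the 4 arrays. Over those 3 arrays Scgb2b7, Scgb2b20, Scgb1b20 and Scgb2b24 ran down from sham 1 through sham 2 to vasectomy 1, while Scgb2b27 and Scgb1b27 had vasectomy 1 above sham 2. Sbp, the spermine-binding protein gene, stayed between 12.37 and 12.55 there.

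**Figure D4:**
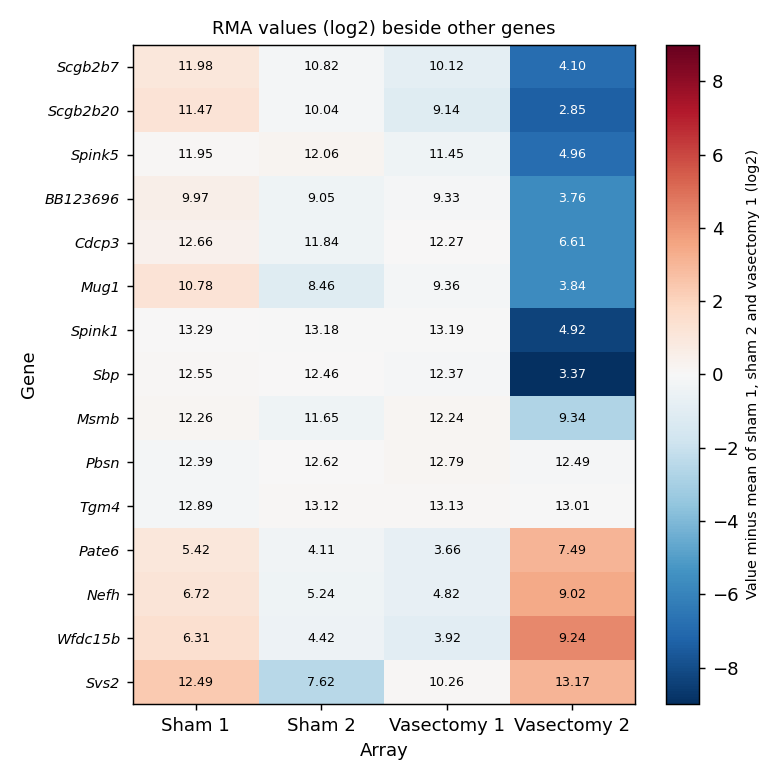
RMA values (log2, printed in each cell) of Scgb2b7 and Scgb2b20, of genes with similar profiles and of other secretory genes in the 4 arrays, coloured by the difference from the mean of sham 1, sham 2 and vasectomy 1. Blue cells in vasectomy 2 run from Scgb2b7 down to Msmb, Pbsn and Tgm4 stay near white, and Pate6, Nefh, Wfdc15b and Svs2 are red.

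For Scgb1a1 the 5 closest genes were Igkv8-30 and 2 more of the Igkv genes, which encode variable regions of immunoglobulin light chains, and the small RNA genes Rnu3a and Snord118, at distances of 0.23 to 0.53. Since Scgb1a1 passed the background stand-in in 1 array, this ranking rests largely on values below it. Igkv8-30 was at 3.48 (vasectomy 1), 5.26 (vasectomy 2), 3.91 (sham 1) and 5.48 (sham 2). Rnu3a, which encodes a small nucleolar RNA, was at 9.31, 11.16, 9.81 and 11.28 in the same arrays. In each of these 5 genes the mice numbered 2 were the higher ones in both groups, as for Scgb1a1, and the same 5 genes were closest without vasectomy 2. Scgb3a1 spanned too little for such a comparison.

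Other products of the prostate epithelium differed in how they moved with the beta-subunit genes in vasectomy 2. Of 7 listed secretory products, 5 were lowest in that array. Against the mean of the other 3 arrays, vasectomy 2 differed by -9.09 for Sbp, -8.30 for Spink1, -6.86 for Spink5, -2.71 for Msmb and -1.09 for Azgp1. Msmb encodes beta-microseminoprotein and Azgp1 a zinc-binding glycoprotein. Sbp, Scgb2b7 and Scgb2b20 were below the background stand-in in vasectomy 2. With it set to the stand-in, the mean of those 3 arrays exceeded vasectomy 2 by 7.84 for Sbp, 6.35 for Scgb2b7 and 5.60 for Scgb2b20. Probasin (Pbsn), the androgen-regulated lipocalin of the mouse prostate, was at 12.49 in vasectomy 2 against 12.39 to 12.79, and the transglutaminase Tgm4 was at 13.01 against 12.89 to 13.13. The summed level of the 7 genes was 13.94 in vasectomy 2, 15.30 in vasectomy 1 and 15.27 to 15.30 in the sham arrays. All 6 measured luminal genes, among them the luminal keratin genes Krt8 and Krt18, were lowest in vasectomy 2, by a median of 0.50. The share of all genes that were lowest or highest in vasectomy 2, the array least like the others, was not counted. Nothing is therefore read from such counts for this or any other list. Foxa1, a pioneer factor of luminal prostate cells, was at 8.88 (vasectomy 2), 9.58 (sham 2), 10.20 (vasectomy 1) and 10.33 (sham 1). Of 8 measured transcription factor genes listed for secretoglobin promoters, 2 were lowest and 5 highest in vasectomy 2 (Foxa2 level with sham 2), the latter including Nkx2-1 (5.84 against 4.78 to 5.37) and Cebpa (5.78 against 4.83 to 5.15). Of 9 airway genes, 3 had a mean above background. Cyp2f2, a cytochrome P450 abundant in club cells, was at 8.83 (sham 1), 8.33 (vasectomy 1), 7.95 (sham 2) and 6.65 (vasectomy 2), whereas Bpifa1 and Bpifb1, airway secretory genes, stayed between 3.09 and 3.75.

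Markers of some other tissues and cell types were higher in vasectomy 2, where Scgb2b7 and Scgb2b20 were low, and those of others were not. All 9 measured seminal vesicle genes were highest in vasectomy 2, by a median of 3.05 above the other 3 arrays. Their summed level was 14.64 in vasectomy 2 and 11.41 in vasectomy 1, against 13.96 in sham 1 and 11.50 in sham 2. Sham 1, the array with the highest Scgb2b7, thus had the second highest seminal vesicle level, and vasectomy 1 and sham 2 had levels close to each other. Summed levels in vasectomy 2 and in the range of the other 3 arrays were 14.21 against 13.62 to 13.89 for 12 smooth muscle genes, 11.99 against 11.35 to 11.58 for 8 fibroblast genes, 10.11 against 7.55 to 7.95 for 7 adipocyte genes, and 9.68 against 8.57 to 8.97 for 7 macrophage genes. They were 7.99 against 7.83 to 8.10 for 11 genes of epididymis and vas deferens, 8.75 against 8.73 to 9.15 for 4 basal cell genes, 10.18 against 10.55 to 10.83 for 6 urothelial genes and 8.53 against 8.18 to 8.65 for 6 endothelial genes. Sums weigh bright genes most. Of the 6 urothelial genes, only Upk1a was lowest in vasectomy 2 (6.05 against 8.21 to 9.40) and 2 were highest, with a median of 0.08 above the other 3 arrays. The part of these tissues in the secretoglobin values was not tested. At an adjusted p under 0.05, limma called 0 genes of any list, and 0.00% of all genes.

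**Figure D5:**
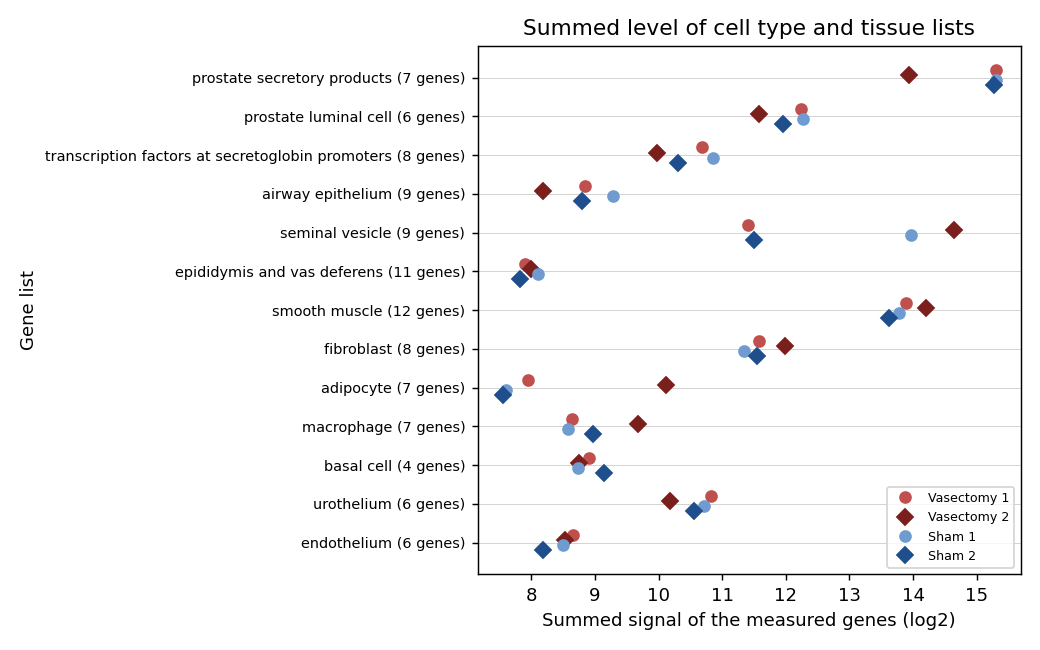
Summed signal of each gene list (log2, horizontal axis) in the 4 arrays, 1 point per array, with the number of measured genes beside each list name. Vasectomy 2 is lowest for the prostate secretory products (13.94) and highest for the seminal vesicle (14.64), smooth muscle (14.21) and adipocyte (10.11) lists.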

How the data were processed

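The authors deposited RMA values, taken here as log2, made with Affymetrix Expression Console 1.3.1 and RMA. RMA brings all arrays to 1 distribution before it sums up each probe set, which would hide a shift common to most genes of an array. Scanner files were not analysed here, and the methods give a human array where the annotation holds mouse genes. Of 41345 probe sets, 23521 carried exactly 1 gene symbol, 1820 carried more and 16004 were not listed. For each symbol the brightest probe set by the mean of the 4 arrays was kept, which gave 22180 genes, and the RefSeq table of assembly GRCm38.p6 changed 0 symbols. Promoter windows were aligned end to end with biopython 1.88, with end gaps free. Surgery and mouse number came from the sample labels.

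Vasectomy was set against sham with lmFit and eBayes of limma 3.58.1 (R 4.3.3). P-values were adjusted by Benjamini-Hochberg over 22180 genes, called under 0.05, and the steps were tested on simulated data. Nothing says whether mice shared litter or cage. With 2 arrays a group, limma draws each gene's spread between mice toward that of all genes. Its p-values and standard errors therefore do not follow from the printed SDs alone. The number of arrays limits the precision. The members and gene lists were chosen with earlier results of these data known. Named are the 4 genes, other Scgb genes, listed markers, and the 5 genes nearest to each of the 4 that spans at least 2 on the log2 scale. Summed levels are the log2 of summed linear values. Alternatives were median centring, repeated quantile normalization, the mean of a gene's probe sets, a filter on dim genes, array weights, a variance trend, a replicate block, the t-test of the methods, a 1.5-fold threshold and leaving out each array. Profiles over 3 arrays, tallies of the other secretoglobins without each array, and values raised to the background stand-in were added after the data were examined. Figures were drawn with matplotlib 3.10.9.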

Additional observations from a re-analysis of the deposited data

How the results depend on the processing

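Under repeated quantile normalization, the differences of Scgb2b7, Scgb2b20, Scgb1a1 and Scgb3a1 moved by less than the spread between replicates. The remaining processing settings could not move them. Median centring cancels, since the array medians were 4.80 and 4.82 in each group. Each of the 4 genes has a single probe set, so the mean of all probe sets is the same value. The filter on dim genes alters no value, and it removed Scgb1a1. Over single omitted arrays the difference ran from -7.30 to -1.28 for Scgb2b7, from -7.91 to -1.62 for Scgb2b20, from -1.93 to 0.74 for Scgb1a1 and from -0.28 to 0.16 for Scgb3a1, with vasectomy 2 at the near end for the first pair. Limma called 0 genes at an adjusted p under 0.05 in every setting tried. At an unadjusted p under 0.05 it gave 453 genes, but 1185 without vasectomy 1, 383 without vasectomy 2, 332 without sham 1, 300 without sham 2 and 178 of 13556 above background, and the methods' t-test gave 750 with 0 after adjustment. With the mouse number as a replicate block, limma called 0 genes (821 at an unadjusted p under 0.05). The member differences of -4.29, -4.76, -0.60 and -0.06 cannot change under that block, since each mouse number occurs once in each group. Deviations of same-numbered mice correlated at 0.19 across genes. The methods speak of 2 pairs of mice but do not say what a pair shared or how the pairs were numbered. The main fit therefore did not pair the mice. Genes at least 2-fold lower without overlap numbered 24, but 114 at a 1.5-fold threshold and 36 to 190 with an array omitted. Those at least 2-fold higher numbered 19, but 128 at 1.5-fold, 11 among genes above background and 13 to 238 with an array omitted. With 1 array against 2, a lack of overlap is likelier by construction. Of the 19 other secretoglobins, 12 to 15 had a lower mean with an array omitted, and with all arrays 49.8% of all genes had one.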
